A study of Mus musculus with 8 samples.

Results

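Interferon-stimulated genes are switched on when cells sense interferon, and 34 of them are described here in tumour-infiltrating T cells. The list joins classical targets of type I interferon with some that respond as well to interferon-γ. It was chosen with earlier results of these data known, so that it is not independent of them. Of the 34 genes, 33 have a row among the 32285 genes of the expression tables, and Mx1 was not analysed here. The levels come from CROP-seq, a pooled CRISPR screen read out by single-cell RNA sequencing on the 10x Genomics platform, in which a transcript and the guide RNA (sgRNA) of a cell are sequenced together. The 8 samples pair an expression with a guide library in 4 channels, 3 from mice given anti-PD-1 and 1 from mice given IgG.

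All 4 channels held the same kind of cell, CD90.1+ OT-I T cells. OT-I cells are CD8+ T cells with a single receptor for an ovalbumin peptide, and here they came from Cas9 knock-in mice, were transduced with a lentiviral CRISPR library against metabolic genes and were purified by the CD90.1 marker of the vector. They were injected into Rosa26-Cas9 recipient mice with orthotopic KPC_OVA tumours, a pancreatic ductal adenocarcinoma line made to express ovalbumin, and anti-PD-1 was started on that day. CD90.1+ cells were sorted from the primary tumour 7 days after transfer. Controls thus carried Cas9 and guides as well, and each library is a mixture of knockouts. Titles of anti-PD-1 replicates 1 and 2 share a stem, and no label says whether these libraries came from separate animals. P-values for treatment thus measure the spread between these libraries, which may be technical. Those for states and knockouts rest on the spread left after differences between libraries are taken out, which may be technical too.

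Cells with exactly 1 called guide that also passed limits on UMIs and mitochondrial share were used. Anti-PD-1 replicate 1 had 2535 of them (from 2607 with 1 guide), replicate 2 had 2597 (from 2654), replicate 3 had 6432 (from 6650) and IgG had 11495 (from 11894). Their median depth was 16829, 16325, 12084 and 6329 unique molecular identifiers (UMIs, each counting 1 captured transcript) per cell. At most 18 cell barcodes were shared by any pair of libraries. Levels are in CPM, the UMIs of a gene per 1000000 UMIs of the summed cells. T cell markers stood at 6533 to 7124 CPM in every library, against 55.6 to 196 CPM for the B or plasma list (highest in replicate 3), 42.8 to 67.3 CPM for the dendritic list, 11.2 to 17.8 CPM for the macrophage or monocyte list and at most 22.2 CPM for the 4 other lists. The libraries fell into pairs. Replicates 1 and 2 stood apart from replicate 3 and IgG for many genes, and this split bears on every comparison of treatment given here.

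Type I interferons bind the receptor of Ifnar1 and Ifnar2, whose kinases Tyk2 and Jak1 phosphorylate Stat2. It joins Irf9 in a complex called ISGF3 that binds the interferon-stimulated response element (ISRE), while interferon-γ acts through Ifngr1 and Ifngr2 on another motif, the gamma-activated site (GAS). The induced genes block viral translation, sense or degrade nucleic acids, and feed back on the pathway, and in CD8+ T cells the same signal is known to shape survival, effector function and exhaustion.

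To show the element that many of the genes share, the part of the promoter that holds the ISRE core (GAAA, any 2 bases, GAAA) is printed for 8 members, from genes found in few cells (Ifit1, Ifit3, Ifit3b, Isg15, Rsad2) to genes found in many (Bst2, Gbp7), with Oas1a for its place next to the start. Sequences are from RefSeq on GRCm38.p6, read 5′ to 3′ on the strand of the gene, and capitals mark the core on either strand, so that a match on the other strand reads TTTC, any 2 bases, TTTC. In Isg15, Bst2 and Oas1a the matches overlap one another and form 1 capital run.
Isg15 (chr4:156200850-156200921, minus strand): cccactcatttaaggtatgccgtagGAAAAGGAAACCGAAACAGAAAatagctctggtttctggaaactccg
Ifit1 (chr19:34640760-34640838, plus strand): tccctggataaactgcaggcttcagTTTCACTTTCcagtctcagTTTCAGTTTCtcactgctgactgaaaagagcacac
Ifit3 (chr19:34583348-34583441, plus strand): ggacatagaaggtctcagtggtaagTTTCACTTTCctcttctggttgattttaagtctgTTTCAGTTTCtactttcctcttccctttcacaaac
Ifit3b (chr19:34607744-34607837, plus strand): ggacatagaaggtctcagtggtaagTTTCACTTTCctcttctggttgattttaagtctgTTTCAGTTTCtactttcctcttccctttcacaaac
Bst2 (chr8:71537562-71537627, minus strand): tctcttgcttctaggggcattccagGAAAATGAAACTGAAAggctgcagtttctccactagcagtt
Rsad2 (chr12:26456538-26456597, minus strand): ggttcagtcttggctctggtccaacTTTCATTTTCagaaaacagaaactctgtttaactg
Oas1a (chr5:120907526-120907570, minus strand): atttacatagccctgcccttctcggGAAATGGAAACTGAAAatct
Gbp7 (chr3:142530258-142530317, plus strand): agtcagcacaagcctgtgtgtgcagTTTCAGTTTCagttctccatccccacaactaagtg

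The Ifit3 and Ifit3b stretches differed at 0 of 94 bases, and these neighbouring genes are near-identical copies, so that reads of one could be counted for the other or dropped. RefSeq windows, from 250 bases before to 50 bases after the start, were found for 26 members. The core occurred on either strand in 16 of the 26 members (61.5%) and in 3.99% of all genes with a window (3.44% of 32851 windows). A GAS core, TTCNNNGAA, occurred in 6 of 26 members (23.1%) and in 9.55% of all genes, and in Bst2 a match to it overlapped the ISRE core. A match describes the letters and shows no binding. The members lie on 14 chromosomes in GRCm38, as protein-coding genes of GENCODE M21, with small clusters such as Ifit2, Ifit3, Ifit3b and Ifit1 between chr19:34550694 and chr19:34650009.

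The 33 genes spanned a wide range of levels, and 1 of them dominated. As only the 3′ end of a transcript is captured, a CPM counts transcripts and does not depend on their length. Ifi27l2a (chr12:103442167-103443680), which encodes a small interferon-induced membrane protein, was at 216, 242 and 564 CPM with anti-PD-1 (replicates 1 to 3) and at 493 CPM with IgG. It held between 29.0% and 42.1% of the UMIs of all members together. Replicate 3 and IgG were high and replicates 1 and 2 low, with no overlap between these pairs.

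Next in mean level came 6 members of several roles. Ifi47, an immunity-related GTPase induced by interferon-γ, was at 94.7, 97.0, 124 and 110 CPM in the same order of libraries. Bst2, or tetherin, which holds budding virions at the cell surface, was at 73.8, 81.4, 85.6 and 75.9 CPM. Isg20, a ribonuclease, was at 37.8, 43.8, 110 and 94.8 CPM. Isg20 thus split like Ifi27l2a, while the levels of Bst2 lay close together and IgG fell among the anti-PD-1 libraries. Gbp7, a guanylate-binding GTPase of the defence against intracellular pathogens, was at 59.6, 57.1, 86.4 and 77.0 CPM. Ifi35, a partner of Nmi, was at 39.4, 44.5, 46.9 and 45.0 CPM. Trim30a, a tripartite motif protein known to restrain Toll-like receptor signalling, was at 36.9, 33.3, 53.2 and 45.7 CPM, although reads of its paralogues may be counted here. Neighbours in this order, such as Bst2, Isg20 and Gbp7, overlapped across libraries and cannot be ranked.

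Parp14, Zbp1 and Irf9 followed in mean level. Parp14, a mono-ADP-ribosyltransferase and cofactor of STAT factors, was at 31.9, 30.03, 44.2 and 41.9 CPM. Zbp1, a sensor of Z-form nucleic acids that can trigger necroptosis, was at 34.6, 35.4, 42.7 and 33.99 CPM. Irf9, the DNA-binding subunit of ISGF3, was at 19.8, 18.7, 28.9 and 23.4 CPM. Parp14 and Irf9 were lower in replicates 1 and 2 than in the other pair, and Zbp1 was lowest in IgG. The ubiquitin-like modifier Isg15 (chr4:156199424-156200818), often used as a marker of the response, was at 12.4, 11.5 and 20.5 CPM in the anti-PD-1 replicates and at 11.0 CPM in IgG, so that replicate 3 stood alone. Another 15 members had means over the 4 libraries from 1.82 CPM (Ifit3) to 21.5 CPM (Xaf1, an antagonist of the apoptosis inhibitor XIAP). In falling order between these came Ddx58, Irf7, which amplifies interferon production, Gbp2, Ifi213, Stat2, Ifit2, the helicase Dhx58 (LGP2), Ifih1, Rtp4, Slfn5, Ifit1, Oas3 and Usp18.

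Most of the Oas family, other than Oas3 with 688 UMIs, and some other classical targets had few UMIs. Rsad2, or viperin, had 185 UMIs in all 4 libraries together, Oas1a had 249 and Ifit3b had 81. Oasl2 had 23 UMIs, Oasl1 19, and Oas2 and Ifi44 had 4 each. Oas2 was at 0 in replicate 1 and in IgG, which allows up to 0.0614 and 0.0365 CPM, and Ifi44 was at 0 in replicate 1. Oas1a has near-identical neighbours in the mouse genome, and its count is uncertain for that reason.

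**Figure D1:**
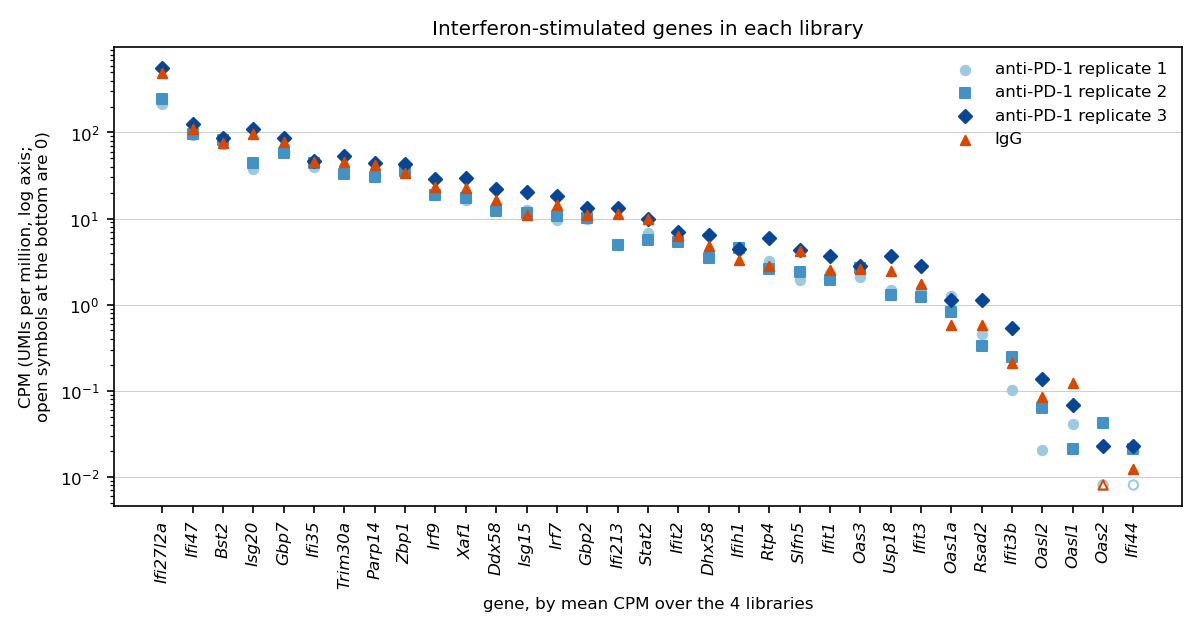
Level of the 33 genes in CPM (log axis) in each of the 4 libraries, ordered by their mean. Ifi27l2a lies highest, from 216 to 564 CPM, and in most genes anti-PD-1 replicate 3 (dark diamonds) lies above replicates 1 and 2, with IgG (triangles) next to it.

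The plot of levels by library shows this range and the recurring order of the libraries. Replicates 1 and 2 were both below replicate 3 and IgG in 23 of the 33 members, and both above them in 0, where 37.3% and 31% of the 10708 genes over 1 CPM did so. Replicate 3 was the highest library in 28 of 33 members and in 29.1% of all genes. All members together were at 746, 782, 1357 and 1169 CPM, and without Ifi27l2a at 530, 541, 793 and 676 CPM.

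Among the ligands, Ifng, the gene of interferon-γ, was the one with many transcripts. It was at 441, 630, 417 and 471 CPM, with no order by treatment. Of the 13 ligand genes searched, 10 had no UMI in any library (a count of 0 allows up to 0.0112 CPM over all 4), among them Ifnb1, 5 Ifna genes and the interferon-λ genes Ifnl2 and Ifnl3, while Ifnz had 20 UMIs and Ifnk 1. Receptor chains were present. Ifnar1 was at 45.4 to 61.6 CPM, Ifnar2 at 32.3 to 45.6 CPM and Ifngr1 at 237 to 283 CPM, whereas Ifngr2 had 42 UMIs in all.

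To ask whether treatment moved the genes, the 3 anti-PD-1 libraries were compared with the IgG library by edgeR's quasi-likelihood test on UMIs summed per library. Of the 29 members with enough counts, 0 were called higher and 0 lower at an adjusted p under 0.05, and over all 13810 genes tested the shares called were 0% and 0%. At an unadjusted p under 0.05 there were 0 members and 282 genes. DESeq2 called 0 members, with 3 genes higher and 2 lower. The median log2 difference of the members was -0.05, against 0.01 over all genes. With 1 IgG library, its spread was assumed to equal that of the anti-PD-1 libraries.

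Members with the smallest p are described as values. Ifih1, which encodes the RNA sensor MDA5, was at 4.36, 4.52 and 4.45 CPM in anti-PD-1 and 3.26 CPM in IgG, a log2 difference of 0.46 ± 0.19 (SE) with an edgeR adjusted p of 0.987. Oas1a was at 1.25, 0.809 and 1.14 CPM against 0.585 CPM, a log2 difference of 0.88 ± 0.40 (adjusted p = 0.987). Stat2, the ISGF3 subunit, was at 6.76, 5.69 and 9.80 CPM against 9.83 CPM, a log2 difference of -0.39 ± 0.30 (adjusted p = 0.987). All anti-PD-1 libraries lay above IgG for Ifih1 and Oas1a and below it for Stat2, and in no case did this pass the test. Over the 33 members, the 3 anti-PD-1 libraries all lay above IgG in 4 and all below it in 2, where 22.2% and 23.7% of the 10708 genes over 1 CPM did so.

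The result depended on which anti-PD-1 library was set against IgG. On the scale of log2(CPM + 1), replicate 3 exceeded IgG in 28 of 29 members (median 0.29), where 50.4% of all genes did so (median 0.00). Replicate 1 exceeded the same IgG library in 5 of 29 members (median -0.21) and replicate 2 in 7 of 29 (median -0.29). Of all genes, 50.4% and 44.0% did so (medians 0.002 and -0.04). Without replicate 3, edgeR called 14 members lower and 1 higher, namely Ifih1, where 12.5% and 12.4% of all genes were called. With the pair of libraries as a term, 0 members were called lower and 3 higher, where 0.905% and 1.14% of all genes were called, and 28 of 29 members were above 0. The 3 were Isg15 (log2 0.89 ± 0.12, adjusted p = 3.94e-10), Rtp4, a receptor chaperone (1.09 ± 0.17, adjusted p = 5.65e-08) and Ddx58, the RNA sensor RIG-I (0.41 ± 0.12, adjusted p = 0.0299). That term compares replicate 3 with IgG alone and takes its spread from replicates 1 and 2.

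The pairs of libraries were then set against each other. This comparison was added after the libraries had been seen to fall into these pairs, so that its calls describe that split and are no independent test of it. Replicates 1 and 2 against replicate 3 and IgG gave 17 of 29 members lower and 0 higher, where 14.5% of the 13275 genes tested were called lower and 14.5% higher. The median log2 difference was -0.50 for members and 0.00 for all genes. Without replicate 1 or without replicate 2, 1 library is left on that side. The median was then -0.53 and -0.46 for members and -0.01 and -0.005 for all genes. Isg20 differed by -1.30 ± 0.10 on the log2 scale, Ifi213, a DNA-binding protein of the HIN-200 family, by -1.30 ± 0.11 and Ifi27l2a by -1.18 ± 0.10. By role, 4 of 4 transcription factors and cofactors were lower (Irf7, Stat2, Parp14 and Irf9), 3 of 5 nucleic acid sensors (Ifi213, Dhx58 and Ddx58), 7 of 14 antiviral effectors and 1 of 2 genes of the ISG15 system, Usp18, the protease that removes Isg15. Bst2, Ifi35 and Zbp1 were not called, with differences of -0.03 ± 0.09, -0.10 ± 0.09 and -0.10 ± 0.10.

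Other genes of the pathway showed the split too. Of 40 further interferon-stimulated genes tested, 24 were lower and 0 higher in replicates 1 and 2, and of 27 interferon-γ targets 11 were lower and 1 higher. That gene was Cxcl10, a chemokine, which was named after its value was seen. Among receptor and signalling genes, Ifnar2, Socs1 and Ptpn6 were lower and Ifnar1 and Socs3 higher. Socs3, a feedback inhibitor of cytokine receptors, was at 22.6, 23.0, 5.97 and 5.19 CPM. Dendritic markers moved with the pairs, at 43.8, 42.8, 67.3 and 64.0 CPM summed over the list, with 3 of 7 tested lower (Cd74, H2-Aa and H2-Ab1), and macrophage markers at 12.4, 11.2, 17.8 and 13.9 CPM, with 4 of 8 lower. The B or plasma list was at 62.9, 55.6, 196 and 71.9 CPM, with 2 of 3 lower (Igkc and Cd79b). The part of these markers in the result was not tested beyond leaving out cells. Without the cells that held at least 10 UMIs of other cell types, 17 members were lower and 0 higher, where 2010 and 1956 of 13224 genes were. The depth per cell given above moved with the pairs too. On cells thinned to 3000 UMIs, 13 of 27 members tested were lower and 0 higher (median log2 -0.41), where 9.3% and 9.69% of all genes were called. No label names a batch. The study describes independent experiments, and its authors corrected for 2 batches when integrating the cells, without tying a library to one of them.

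**Figure D2:**
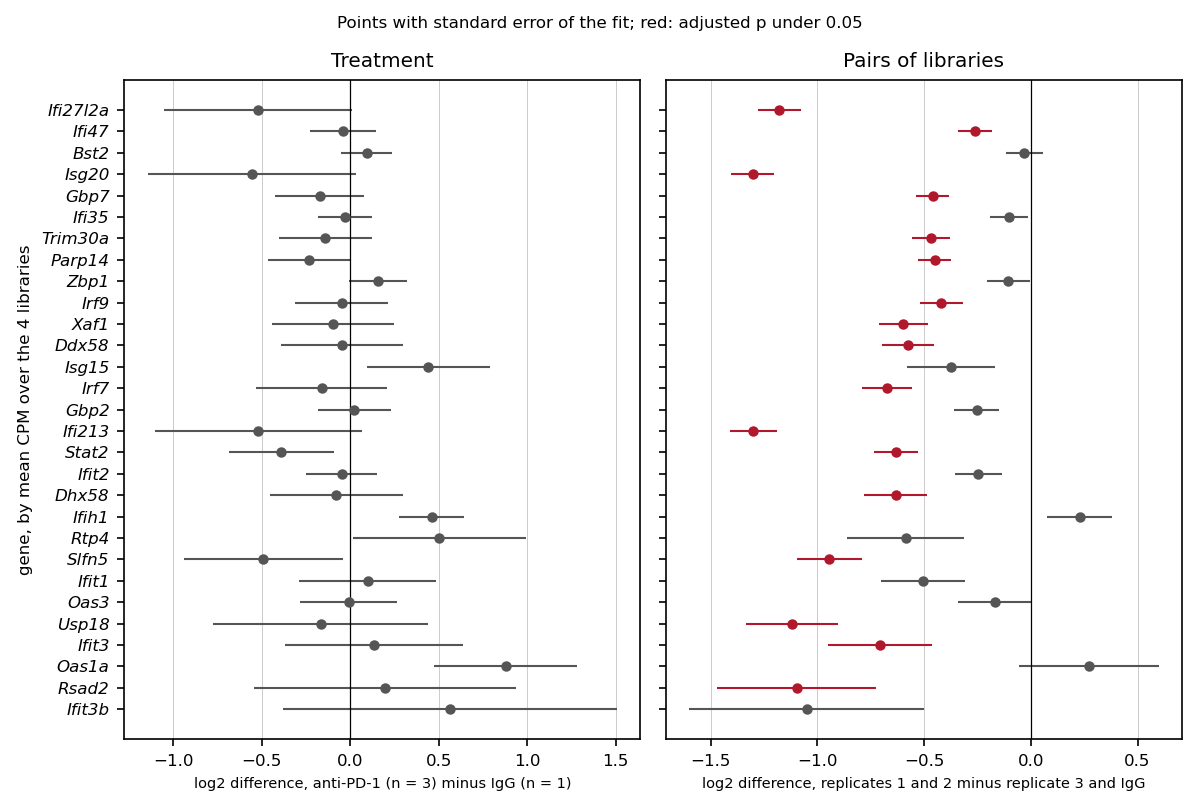
Fitted log2 difference of each of 29 genes with its standard error, on the left for anti-PD-1 (n = 3) minus IgG (n = 1) and on the right for replicates 1 and 2 minus replicate 3 and IgG, with red points at an adjusted p under 0.05. No gene is red on the left, and 17 are red on the right, all below 0.

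Differences between cell states were read from 6 states defined by marker genes that hold no member. A cell took the state of the marker list with its highest score, so that the states are ranges of a score and not types. The lists were for precursor exhausted (such as Tcf7 and Slamf6), memory (Klf2 and S1pr1), effector (Ifng and Ccl4), exhausted (Pdcd1 and Havcr2), G1S and G2M cells. They held 1635, 1564, 2667, 2029, 3950 and 3525 cells, and 7689 cells under the score limit stayed unclassified. Of all cells, 3046 of 23059 (13.2%) lay within 0.1 of the limit. Each state was compared with the mean of the other 5 by edgeR on UMIs summed per state within each library. Libraries entered as blocks, and 28 members and 11091 genes were tested.

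Summed over all members in CPM, the highest means were in precursor, exhausted and memory cells and the lowest in cycling cells. All members together were at 1286 ± 398 CPM in precursor cells (SD, n = 4 libraries), 1286 ± 300 CPM in exhausted and 1264 ± 305 CPM in memory cells. They were at 903 ± 326 CPM in effector cells, 863 ± 265 CPM in G2M and 820 ± 184 CPM in G1S cells. This order rests in part on Ifi27l2a. Without it the means were 825 ± 153 CPM in memory, 783 ± 108 in exhausted, 634 ± 131 in precursor, 575 ± 107 in G2M, 565 ± 76.5 in G1S and 537 ± 153 CPM in effector cells (SD, n = 4), and 708 ± 165 CPM in unclassified cells. Effector cells were not the lowest in replicate 3, at 742 CPM against 671 CPM in G1S cells. Counted per cell the order of the means was another. Member UMIs per cell were 16.4 ± 4.89 in G2M, 15.6 ± 4.92 in precursor, 14.4 ± 4.40 in G1S, 14.0 ± 4.61 in exhausted, 12.7 ± 3.44 in memory and 12.6 ± 4.23 in effector cells. Median UMIs per cell were 18756 in G2M and 17013 in G1S against 8896 to 13573 in the other states, averaged over libraries. G2M cells had the most member UMIs per cell of the 6 states in 4 of 4 libraries (17.0, 16.6, 21.9 and 10.0), so that their lower summed CPM was a lower share and not a lower summed number per cell.

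**Figure D3:**
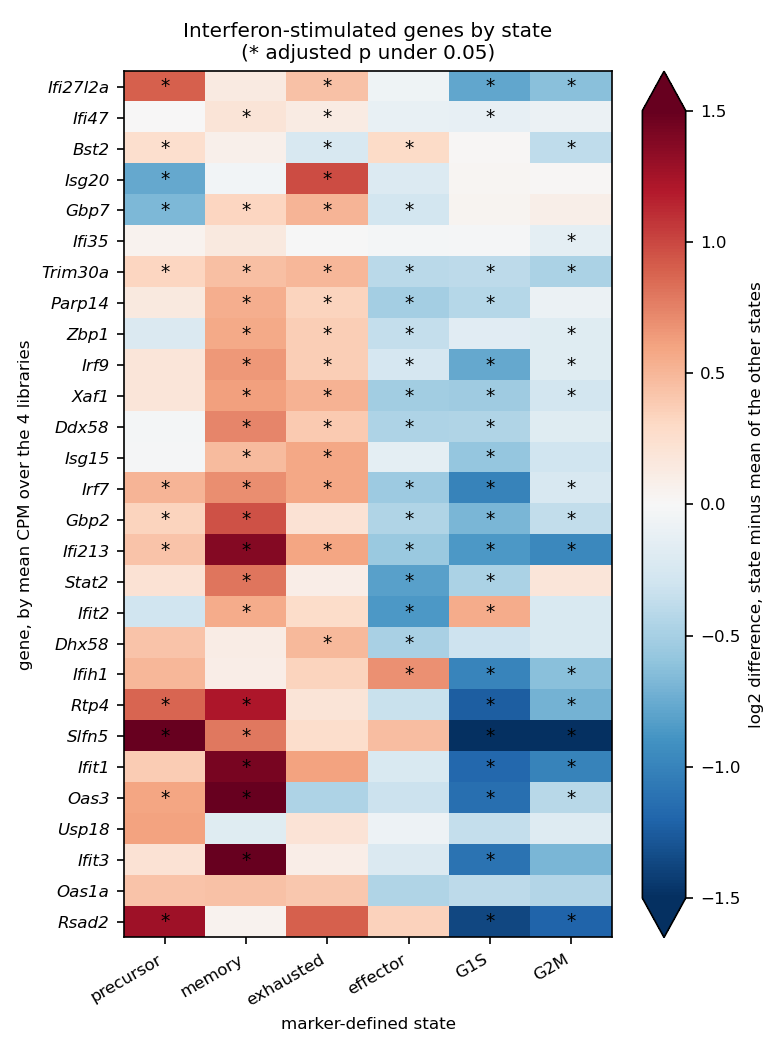
Heat map of the fitted log2 difference of each of 28 genes (vertical axis, by mean CPM) in each of 6 states against the mean of the other states (horizontal axis), with colour from blue (lower) to red (higher) and an asterisk at an adjusted p under 0.05. Memory has 19 asterisks in red and none in blue, G1S has 19 in blue and 1 in red, and Isg20 and Gbp7 are blue in precursor but red in exhausted cells.

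Memory cells had the broadest rise. Of 28 members, 19 were higher and 0 lower, where 19% and 22% of all genes were called higher and lower. All 4 transcription factors and cofactors rose, as did 3 of 5 sensors and 9 of 13 antiviral effectors tested. Oas3, an oligoadenylate synthetase that activates RNase L, was at 7.93, 11.0, 9.15 and 4.91 CPM in memory cells and at 1.43, 2.68, 2.63 and 2.66 CPM on average over the other states (log2 1.75 ± 0.20, adjusted p = 2.02e-08). Ifit3, a tetratricopeptide protein that acts with Ifit1, was at 2.88, 5.71, 10.3 and 1.64 CPM against 0.836, 1.19, 2.37 and 1.51 CPM (1.69 ± 0.34, adjusted p = 0.000141). Ifit1, which blocks translation of viral RNA, was at 6.85, 7.35, 6.80 and 2.57 CPM against 1.66, 1.399, 3.22 and 1.93 CPM (1.43 ± 0.32, adjusted p = 0.000522). All 3 were higher in memory cells in 4 of 4 libraries, and the difference was smallest in IgG. They rest on few UMIs, 109 for Oas3, 73 for Ifit3 and 77 for Ifit1.

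The memory state also held the most macrophage signal. The macrophage or monocyte list was at 36.0 CPM there and at 9.10 to 18.7 CPM in the other 5 states, and all 4 macrophage markers tested, Apoe, Lyz2, Itgam and Cd68, were higher. Of the B or plasma markers 2 of 3 were higher (Cd79b and Ighm), and Itgax and Pecam1 were higher too. Their part in the result was not tested beyond leaving out cells. Without the 95 cells that held at least 10 UMIs of other cell types, every member call in memory cells remained. Of 39 further interferon-stimulated genes, 29 were higher and 1 lower, and of 26 interferon-γ targets 17 were higher and 1 lower. Ifngr1, the ligand-binding chain of the interferon-γ receptor, was higher in memory cells by 0.86 ± 0.05 on the log2 scale, and Ifnar1 and Ifnar2 by 0.47 ± 0.07 and 0.40 ± 0.07.

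Precursor cells shared part of this. Members called higher were 10 and lower 2, where 17.5% and 18.9% of all genes were called. The count of 10 fell to 6 without replicate 2, to 5 without IgG and to 6 without ISG-high cells (those with the most member UMIs, defined further on). The share of all genes called in these fits is not given here, so that the counts cannot be set against it. Dendritic markers were higher in precursor cells as well, 4 of 6 tested (Cd74, H2-Eb1, H2-Aa and Itgax) with 1 lower, as were Cd68 and Ighm, and their part in the result was not tested. Without the cells that held at least 10 UMIs of the other lists, from which the dendritic one was left out, every member call in precursor cells remained. Slfn5, a Schlafen family protein, was at 8.57, 4.76, 12.1 and 11.6 CPM in precursor cells and at 1.67, 2.76, 4.54 and 2.91 CPM in the other states (log2 1.92 ± 0.20, adjusted p = 5.95e-09). Ifi27l2a was at 356, 507, 938 and 810 CPM against 235, 229, 544 and 475 CPM (0.89 ± 0.07, adjusted p = 1.44e-11). Both were higher in precursor cells in each library. Rsad2 was called at 1.27 ± 0.51 (adjusted p = 0.0491) from 23 UMIs, was higher in 2 of 4 libraries, and without IgG stood at 0.17 (adjusted p = 0.897). Isg20 went the other way, at 21.9, 31.1, 63.0 and 49.0 CPM against 39.4, 48.2, 107 and 92.9 CPM (-0.77 ± 0.11, adjusted p = 1.73e-06). Gbp7 was at 44.6, 34.4, 59.0 and 44.1 CPM against 63.3, 62.3, 92.1 and 77.6 CPM (-0.68 ± 0.09, adjusted p = 2.88e-07). Both were lower in 4 of 4 libraries.

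Exhausted cells had 14 members higher and 1 lower, where 26% and 24.1% of all genes were called. Isg20 was at 73.2, 86.4, 147 and 137 CPM in exhausted cells and at 29.2, 37.1, 90.6 and 75.3 CPM in the other states (log2 0.98 ± 0.09, adjusted p = 1.68e-10). Ifi213 was at 11.6, 7.98, 18.1 and 13.3 CPM against 4.93, 6.39, 15.4 and 11.6 CPM (0.59 ± 0.15, adjusted p = 0.0017). Isg15 was at 19.2, 23.1, 29.3 and 10.5 CPM against 10.2, 10.3, 21.8 and 10.7 CPM (0.58 ± 0.15, adjusted p = 0.00188). Isg20 and Ifi213 were higher in all 4 libraries and Isg15 in 3, with no rise in IgG. Isg15 was at -0.21 on cells thinned to an equal depth of 3000 UMIs (adjusted p = 0.485) and Ifi213 at 0.05 (adjusted p = 0.878). Bst2 was the member that fell, at 67.1, 65.8, 77.6 and 69.1 CPM against 73.8, 85.8, 89.8 and 80.4 CPM (-0.24 ± 0.06, adjusted p = 0.000966). All 8 T cell markers were higher in exhausted cells too. Of markers of other cell types, Cd68 (1 of 4 macrophage markers tested), Ighm (1 of 3 B or plasma), Epcam (1 of 4 tumour epithelial), H2-Ab1 and Ccr9 were higher, and Cd74, Itgax and Pecam1 were lower. The part of these markers in the result was not tested.

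Effector cells, chosen by lists that include Ifng, had 2 members higher and 13 lower, where 26.3% and 25.7% of all genes were called. Ifih1 was at 4.91, 8.04, 7.46 and 4.79 CPM in effector cells and at 4.36, 5.18, 4.59 and 3.62 CPM in the other states (log2 0.69 ± 0.16, adjusted p = 0.000556). Bst2 was at 77.5, 91.8, 102 and 84.5 CPM against 71.8, 80.6, 85.0 and 77.3 CPM (0.28 ± 0.05, adjusted p = 3.1e-05). Both were higher in 4 of 4 libraries. Ifit2, a relative of Ifit1, was at 3.86, 2.90, 4.28 and 2.72 CPM against 5.56, 6.83, 8.09 and 6.57 CPM (-0.86 ± 0.17, adjusted p = 8.54e-05). Stat2 was at 3.33, 2.09, 7.01 and 5.77 CPM against 7.66, 7.46, 11.2 and 10.3 CPM (-0.81 ± 0.14, adjusted p = 2.3e-05). Ifi213 fell by 0.56 ± 0.15 (adjusted p = 0.00263). All 3 were lower in each library, and 4 of 4 transcription factors and cofactors were lower. Of the receptor genes, Ifnar1, Ifnar2 and Ifngr1 were lower by -0.74 ± 0.07, -0.75 ± 0.06 and -0.66 ± 0.06, while Socs1, a feedback inhibitor, was higher by 0.59 ± 0.07. Of the T cell markers 4 of 8 were higher and 2 lower in effector cells. The B or plasma markers Ighm and Cd79b (2 of 3), Pecam1 and Ccr9 were lower and H2-Ab1 was higher, and their part in the result was not tested.

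In the cycling states most calls were downward. G1S cells had 1 member higher and 19 lower, where 27.8% and 28.8% of all genes were called, and G2M cells had 0 higher and 16 lower, where 22.5% and 27.5% were called. The G2M count rests in part on single libraries, with 9 lower and 0 higher without replicate 2 (21.4% and 22.8% of all genes) and 8 lower and 1 higher without replicate 3 (19.6% and 22.1%). CPM are shares of all UMIs. Per cell, 8 of the 16 members called lower in G2M had a mean that was not below that of the other states, and Bst2, Ifi35, Irf9, Trim30a and Zbp1 were lower per cell in 0 of 4 libraries. Irf9 was at 42.3 UMIs per 100 G2M cells against 32.0 in the other states, Ifi35 at 79.8 against 58.9 and Zbp1 at 68.8 against 52.3. Ifi213, Ifit1, Rsad2 and Slfn5 were lower per cell as well in 4 of 4 libraries. In G1S cells, 16 of the 19 had a lower mean per cell, 10 of them in 4 of 4 libraries. Slfn5 was at 0.755, 1.16, 1.47 and 1.25 CPM in G1S cells against 3.23, 3.48, 6.66 and 4.97 CPM elsewhere (log2 -1.72 ± 0.22, adjusted p = 1.3e-07), and at 0.76, 0.939, 1.43 and 1.4803 CPM in G2M cells (-1.71 ± 0.23, adjusted p = 2.41e-07). Rtp4 was at 1.26, 0.981, 3.49 and 1.67 CPM in G1S cells against 4.41, 4.59, 7.50 and 3.34 CPM (-1.23 ± 0.18, adjusted p = 8.74e-07). Both were lower in each library. Ifit1 was lower in G2M cells by -0.998 ± 0.283 (adjusted p = 0.00409), and without replicate 3 stood at -0.65 (adjusted p = 0.0915). Rsad2 was lower in both states, from 18 and 19 UMIs (-1.37 ± 0.47 with adjusted p = 0.0151, and -1.20 ± 0.47 with adjusted p = 0.034), but without IgG the adjusted p was 0.0799 and 0.17. Ifit2 was the exception, at 8.64, 7.49, 8.85 and 8.16 CPM in G1S cells against 4.61, 5.91, 7.18 and 5.48 CPM (0.56 ± 0.12, adjusted p = 0.000176). T cell markers fell with these states, 8 of 8 in G1S and 7 of 8 in G2M. In G2M cells 4 of 6 dendritic markers (H2-Aa, H2-Eb1, Itgax and H2-Ab1), 2 of 4 macrophage markers and 2 of 3 B or plasma markers were lower too. Epcam and Pecam1 were also lower there, and Ccr9 was higher. Among such markers in G1S cells, Cd68, Itgax, H2-Ab1, Ighm and Pecam1 were lower, and Epcam and Ccr9 were higher. Their part in the result was not tested.

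The state calls depended on the block and on depth. Of 97 member calls in all, 50 remained without the library block, all of them among the 97. On cells thinned to 3000 UMIs there were 54 calls, 48 of them among the 97, while 18 of the 97 were not tested for lack of counts. By state and direction, of 20 members tested in each, thinned precursor cells gave 10 higher and 2 lower (11.3% and 10% of all genes) and memory cells 14 and 0 (11.5% and 12.7%). Exhausted cells gave 3 and 1 (14.5% and 15.2%), shares near or under those of all genes. Effector cells gave 1 and 7 (18.8% and 17.3%), G1S cells 1 and 8 (19.6% and 19.9%) and G2M cells 0 and 7 (17.1% and 19.5%). Among the members named above, Isg20 in precursor cells (adjusted p = 0.23), Ifi213 in effector (0.308) and exhausted cells (0.239), Isg15 in exhausted cells (0.0944) and the 3 calls of Rsad2 (0.179, 0.091 and 0.146) did not pass without the block, with like sizes. On thinned cells, Ifih1 in effector cells (log2 0.63, adjusted p = 0.0924), Ifi213 in effector cells (-0.23, adjusted p = 0.338) and Rtp4 in G1S cells (-0.62, adjusted p = 0.094) did not pass.

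Guides against metabolic genes moved no member past the test. As a check of the guides, 34 of 82 targeted genes were at 10 CPM or more in cells with nontargeting guides (sgNT) under anti-PD-1, and 28 of these had a lower mean in cells of their own guides, with a median ratio of 0.786, and 17 were lower in each of the 3 libraries. Members were then compared between the cells of each of 82 targets and sgNT cells, over the 3 libraries with anti-PD-1. Of 2050 pairs of a member and a target, 0 were called by edgeR and 0 by DESeq2, where 0.0601% of all gene and target pairs were called by edgeR. At an unadjusted p under 0.05 there were 119 pairs (5.80%), against 4.39% of all pairs.

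The nearest pairs show how a few cells carry these genes, and they were chosen after their values were seen. Ifit3 in Gldc-targeted cells had a log2 difference of 3.24 ± 0.72 (edgeR adjusted p = 0.0501), and it had 19 UMIs in 35 cells of replicate 1, 1 in replicate 2 and 0 in replicate 3. All 19 were in 1 cell. Ifit1 in Gpx3-targeted cells (2.80 ± 0.71, adjusted p = 0.236) had 20 UMIs in replicate 3, of which 13 were in 1 cell. Ifi27l2a, in contrast, is counted in many cells, such as 33 of 46 with Kmt2b guides in replicate 1. In cells with Kmt2b guides, against a histone methyltransferase, it was at 370, 392 and 959 CPM, and in sgNT cells of the same libraries at 210, 241 and 517 CPM (log2 0.79, adjusted p = 0.541). It was higher in 3 of 3 libraries. The edgeR fit without a filter on low counts called it (adjusted p = 0.00271), and it called Ifi27l2a in cells of 2 more targets. With guides against Cs, citrate synthase, Ifi27l2a was at 541, 258 and 1022 CPM (log2 0.84 in that fit, adjusted p = 0.00048), higher in 3 of 3 libraries. With guides against G6pc, a glucose-6-phosphatase, it was at 113, 132 and 305 CPM (-0.88 in that fit, adjusted p = 0.0205), lower in 3 of 3. With the filter the adjusted p was 0.16 for Cs and 1.0 for G6pc.

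The spread of members over cells was read next. To compare cells of unequal depth, each was thinned to 3000 UMIs, which left out 0, 0, 36 and 611 shallower cells. A thinned cell held 2.51, 2.64, 4.58 and 3.87 member UMIs on average, and 16.6%, 16.2%, 7.33% and 9.62% of cells held none. The smallest share of cells that held 50% of the member UMIs was 18.5%, 18.3%, 19.1% and 19.6%. The libraries were alike in this share although their levels differed. At full depth it was between 21.1% and 23.0%. For comparison, the share was 36.4% to 36.9% for the T cell markers, 28.7% to 30.4% for the other interferon-stimulated genes and 36.9% to 37.1% for the interferon-γ targets on thinned cells, lists that hold more UMIs per cell. Other lists were more concentrated than the members, with 3.28% to 4.64% for the precursor, 5.93% to 7.24% for the memory, 6.05% to 7.77% for the effector and 7.38% to 9.03% for the G2M markers, and the G1S markers were alike at 16.4% to 19.5%. The memory list held 0.382 to 0.482 UMIs per cell, a low count that narrows such a share. The exhausted markers, with 3.50 to 4.57 UMIs per cell, were less concentrated at 24.1% to 26.15%.

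**Figure D4:**
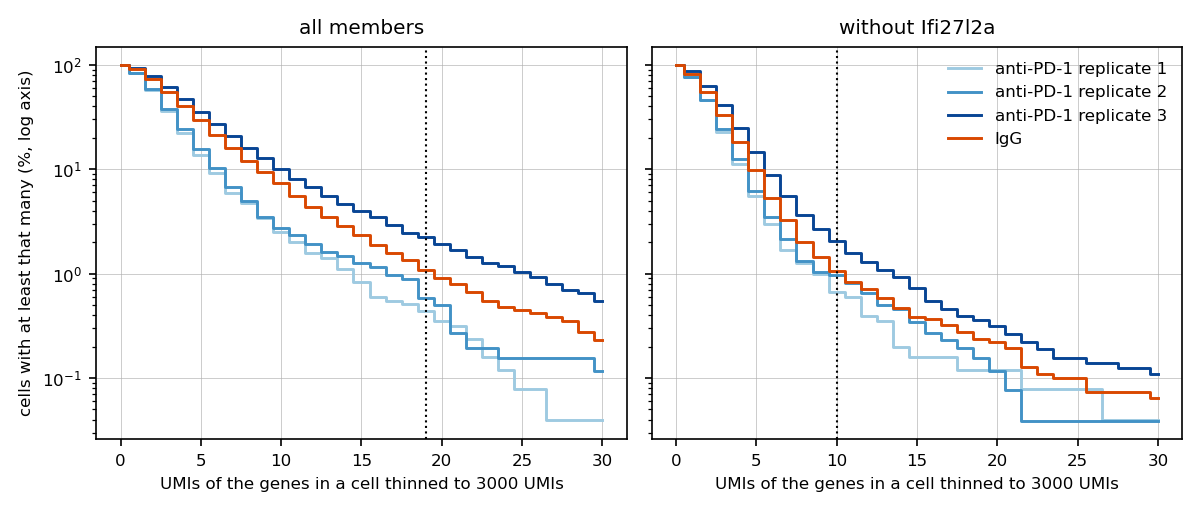
Share of cells (log axis, %) that held at least the number of member UMIs on the horizontal axis, for each library thinned to 3000 UMIs per cell, with all members on the left and without Ifi27l2a on the right. Dotted lines mark the limits of 19 and 10 UMIs. Replicate 3 lies highest at the limits, with 2.22% and 2.03% of its cells at or above them.

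A cell was called ISG-high at 19 or more member UMIs, the 99th percentile with libraries weighted equally. This gave 286 cells, chosen by the member levels, so that their member levels are a description. The share was 0.434% in anti-PD-1 replicate 1 (exact 95% interval 0.217 to 0.775), 0.578% in replicate 2 (0.324 to 0.951), 2.22% in replicate 3 (1.87 to 2.61) and 1.08% in IgG (0.898 to 1.30). Replicate 3 was high, replicates 1 and 2 low and IgG between them, so that treatment groups overlapped. The mean was 1.08% in anti-PD-1 and 1.08% in IgG. The smallest p that exact permutation allows with 3 libraries against 1 is 0.25, so no p is given for this share. Without Ifi27l2a, at 10 or more UMIs, there were 287 such cells, 147 of them among the 286, and the shares were 0.671%, 0.963%, 2.03% and 1.06%.

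ISG-high cells had the marks of T cells. All of them held T cell marker UMIs, with a median of 60 against 66 in the other cells at full depth (median total 6997 and 9573 UMIs), and 1 of 286 held 10 or more UMIs of other cell types. Macrophage markers were at 5.59 UMIs per 100 cells against 5.12 in the other cells, with Lyz2, C1qa, C1qb, C1qc, Csf1r and Adgre1 at 0, and dendritic markers were at 21.3 against 17.9, with Siglech, Flt3, Xcr1 and Clec9a at 0. The 286 cells carried 165 guides against 71 targets, with at most 10 cells of 1 guide, and 9.79% carried sgNT guides against 11.7% of the other cells. A median of 8 members was detected in them, against 2 in the other cells, and Ifi27l2a made up 54.2% of their member UMIs against 40.4%. Pooled over libraries, 47.6% of the ISG-high cells were in no state by the score limit, against 32.7% of the other cells. By library these were 4 of 11, 3 of 15, 70 of 142 and 59 of 118. Among cells chosen without Ifi27l2a it was 39.7%. Each of the 6 states held some ISG-high cells. Their share, averaged over libraries, was 1.86% ± 1.03 (SD, n = 4) of precursor, 1.43% ± 0.80 of exhausted, 1.399% ± 0.96 of memory, 0.82% ± 0.73 of effector, 0.46% ± 0.31 of G1S and 0.45% ± 0.47 of G2M cells, spreads that overlap. It was 1.44% ± 1.30 of the unclassified cells, with 3.22% in replicate 3. Without Ifi27l2a the mean share was 2.73% ± 1.72 in memory cells, carried by replicate 3 at 5.19%, while in IgG memory cells (1.20%) lay below exhausted cells (1.94%).

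Members differed in how far they were confined to such cells. Each member was read in the cells at or above the 99th percentile of the sum of the other members, so that its own UMIs did not choose them. With ties these were 1.19% to 1.43% of cells for members with at least 100 UMIs. Ifit3 had 54.6% of its 183 thinned UMIs in these cells, Ifit1 35.4%, Usp18 31.4%, Isg15 24.0%, Rtp4 19.1%, Oas3 16.1%, Slfn5 14.3% and Irf7 10.8%. At the other end were Irf9 at 3.07%, Gbp7 at 3.08%, Gbp2 at 3.096%, Parp14 at 3.26% and Ifi47 at 3.33%, with Ifi27l2a at 5.22%. More than 5% was held for 17 of the 26 members with at least 100 UMIs, and by ISG-high cells for 27 of 10225 other genes (0.264%), whose median was 1.22%. Ifit3, Ifit1, Usp18 and Isg15 thus had larger shares of their UMIs in this small set of cells than the GTPases and Irf9. The UMIs that free RNA adds to cells were not estimated.

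Within single libraries the shares rest on few UMIs, and the order of members varied. With the percentile taken within each library, Ifit3 had 71.4%, 73.3%, 50% and 50.7% of its UMIs there, from 21, 15, 72 and 75 UMIs. Isg15 had 25.8%, 16.1%, 16.4% and 26.0%, from 118 to 470 UMIs. Ifi47 had 2.90%, 2.69%, 2.75% and 2.77% and Gbp7 3.45%, 2.18%, 2.19% and 2.24%. Ifit3 and Isg15 lay above Ifi47 and Gbp7 in 4 of 4 libraries. Others did not hold their place, such as Slfn5, with 0% of 19 UMIs in replicate 1 and 30% in replicate 2, and Oas3, with 4.35% in replicate 1, where Irf9 had 4.37%. Members were also detected together. Among 117 cells with an Ifit3 UMI, 51.3% had Isg15, against 3.44% of the other cells, and 30.8% had Ifit1, against 0.597%. For genes found in many cells, the shares were 51.3% against 20.1% for Gbp7 and 72.6% against 48.7% for Ifi27l2a. The more of the other cells hold a gene, the smaller the ratio it can reach. Ratios are thus not compared between genes. In members with the ISRE core in the window searched, the median share in the highest cells was 8.76% (13 genes, 3.08% to 54.6%), and 4.72% in 7 members without it (3.07% to 10.8%), ranges that overlap.

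**Figure D5:**
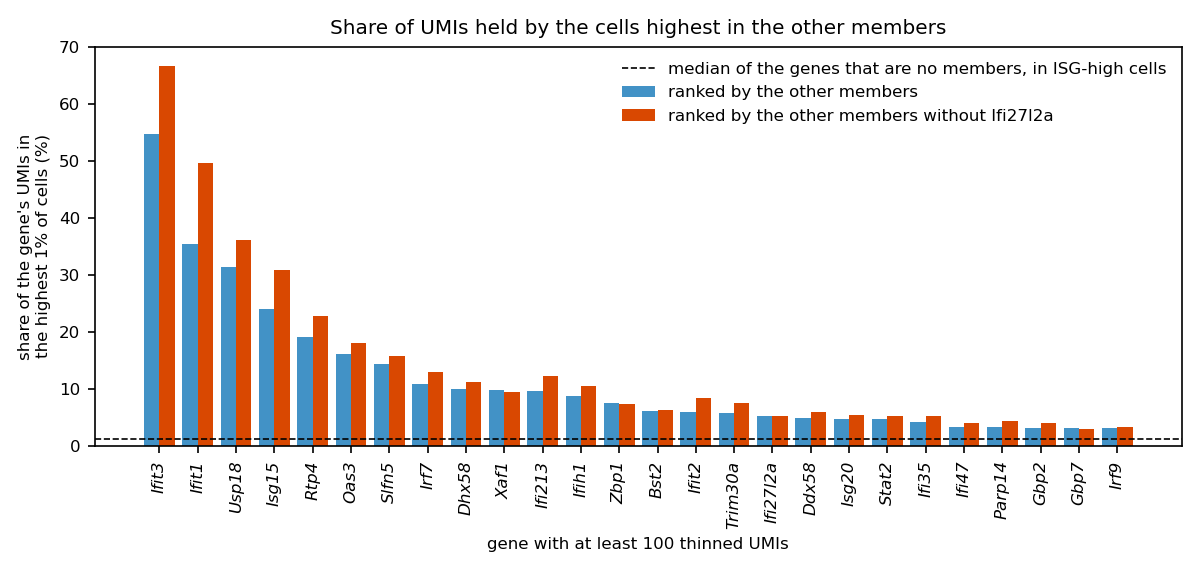
Share (%) of the thinned UMIs of each of 26 genes that lies in the cells at or above the 99th percentile of the sum of the other members (blue) or of the other members without Ifi27l2a (orange), with the median of genes outside the list in ISG-high cells as a dashed line (1.22%). Ifit3 and Ifit1 stand highest, at 54.6% and 35.4%, and Irf9, Gbp7 and Gbp2 lowest, near 3.1%.

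The 10 genes outside the list with the largest share of their UMIs in ISG-high cells, among those with at least 100 thinned UMIs, were Cxcl10 at 29.7%, BC147527 at 11.4%, Trim30d at 11.0%, Ifi208 at 10.7%, Ifit1bl1 at 10.5%, Tgtp2 at 8.12%, Gbp6 at 7.62%, Phf11a at 6.94%, Phf11c at 6.93% and Akap5 at 6.86%. Cxcl10, which attracts cells that carry Cxcr3, had 138 thinned UMIs in all, and in replicate 1 the 10 UMIs of ISG-high cells were in 1 cell. Trim30d and Ifit1bl1 resemble members in sequence, so that reads may be shared with them. Of the fixed lists, over 5% was held for 12 of 36 other interferon-stimulated genes, 3 of 24 interferon-γ targets and 0 of 11 receptor and signalling genes. Socs1 was at 27.3, 26.7, 24.6 and 36.4 UMIs per 100 ISG-high cells against 9.03, 10.8, 11.0 and 12.5 in the other cells, and Ifnar2 at 45.5, 13.3, 23.9 and 25.4 against 9.27, 10.8, 12.6 and 13.9, both higher in 4 of 4 libraries. Ifng was at 63.6, 187, 91.5 and 57.6 UMIs per 100 ISG-high cells, against 116, 162, 114 and 129 in the other cells, higher in 1 of 4 libraries. This rests on Ifi27l2a, as cells chosen without it had 276, 148, 102 and 229.6 against 115, 162, 114 and 127, higher in 2 of 4.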

How the data were processed

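Libraries were made with the 10x Genomics 3′ v3.1 kit with CRISPR feature barcoding. The authors used Cell Ranger 3.1.0 and mm10 to make the UMI counts per gene and cell barcode, which were deposited without normalization, together with guide UMI counts. The annotation release was not given in the sources used here. The submitters' processing notes also name R 3.6.3 and Seurat.

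Barcodes with exactly 1 called guide, a log10 UMI count at most 3 median absolute deviations from the median of its library and at most 10% mitochondrial UMIs were kept. The single-guide rule and the UMI limits were the treatment of doublets, and no doublet caller was run. Kept cells of anti-PD-1 replicate 1 held 48821477 gene UMIs, of replicate 2 48182760, of replicate 3 88543446 and of IgG 82120349. CPM are UMIs per 1000000 of these.

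Raw UMIs were summed per library, per state and library (sums of at least 20 cells), or per target and library (at least 10 cells). Sums were tested with edgeR 4.0.16 in R 4.3.3 (quasi-likelihood test, filterByExpr, TMM, Benjamini-Hochberg adjustment over all genes, threshold 0.05). The library was a block for states and targets. DESeq2 1.42.0 was the alternative. The edgeR fits for treatment, for the memory state and for a subset of the targets were checked on simulated counts. The DESeq2 fits and those for the pairs of libraries were not. In the target fit the null deviance was computed outside edgeR. A state score was the mean standardised log expression of its markers (per 10000 UMIs), and a cell took the state of the highest score if that was at least 0.5. Python 3.11.15 (numpy 2.4.6, pandas 2.3.3, scipy 1.17.1) served for the rest. Cells of other types were those with at least 10 UMIs of the marker lists other than the T cell and dendritic ones. Shares of cells carry exact Clopper-Pearson 95% intervals. These, and the limits for counts of 0 (3 UMIs), cover counting error only.

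Values by library are given for the 10 members with the highest mean CPM, up to 3 called members each way in every state, the 3 with the smallest p for treatment, and up to 5 called knockout pairs. The 10 genes outside the list most like it are named as well. The members, lists and tests were chosen with earlier results of these data known. Gene positions are from GENCODE M21 (GRCm38, 1-based). Results for 1 signalling gene are not reported here.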

Additional observations from a re-analysis of the deposited data

Results flagged for a closer look

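Isg15 was higher in exhausted cells in the anti-PD-1 libraries, while in IgG it was close to the other states, at 10.5 against 10.7 CPM. Its level in exhausted cells minus the mean of the other states was 8.94, 12.8 and 7.45 CPM in the 3 anti-PD-1 libraries and -0.2414 CPM in the IgG library. The difference between the groups was not tested, and IgG has 1 library.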

How the results depend on the processing

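The treatment comparison called 0 members, and with each library left out in turn 0 to 15 (15 without anti-PD-1 replicate 3). With the pair of libraries as a term it called 3. The comparison between pairs of libraries, chosen with its alternatives after the data had been seen, called 17 members and with each library left out 11 to 24 (11 without replicate 1 and 11 without replicate 2). Of the state calls, 97 in all, 50 remained without the replicate block that stands for the library, with 4 in precursor, 8 in effector, 6 in exhausted, 11 in G1S and 6 in G2M cells. On cells thinned to 3000 UMIs there were 54, with 8 in effector, 4 in exhausted, 9 in G1S and 7 in G2M cells, where fewer members passed the filter on counts. Leaving out a library gave 8 to 14 calls in precursor cells (12 with all), with 8 without replicate 2 and 8 without IgG, and 9 to 15 calls in G2M cells, where 9 were left without replicate 2 and 9 without replicate 3. Isg15 in exhausted cells turned to -0.21 on thinned cells, and the cause was not tested. Knockouts gave 0 calls, 5 without a filter on low counts, 0 to 1 with a library left out and 1 without cells of other types, a pair that rests on 1 cell. The difference in the share of ISG-high cells (anti-PD-1 minus IgG, -0.00694 percentage points) turned to 0.00842 at 2000 UMIs, 0.455 at 5000 UMIs and 0.165 without Ifi27l2a, and ranged from -0.823 to 0.311 with a library left out, all within the spread of the libraries. The share of cells that held 50% of member UMIs, 18.9% on average, was 22.0% at full depth, 20.3% at 5000 UMIs and 19.96% without Ifi27l2a. Among values of single named genes, 276 kept direction and side of the threshold, 20 no longer passed it, 2 newly passed it and 1 changed sign. No paired analysis was possible for treatment because IgG has 1 library. Counts limit Rsad2, Ifit3b, Oas1a, Oas2, Oasl1, Oasl2 and Ifi44, which have 4 to 249 UMIs each.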
